A study of Mus musculus with 6 samples.

Results

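In Irf4 -/- T cells, 124 listed genes that read far below a mixed-tissue reference in heterozygous cells read at least 2-fold higher. They are a mixed set: an ion channel gene (Ano1), interferon-inducible genes (Apol7c, Calhm6), secreted factors (Olfm1, Csf1), matrix and adhesion genes (Tnc, F13a1), zinc finger genes (Zfp945, Zfp608) and many genes of signalling and the cytoskeleton. The genes were selected on these same arrays, from the 689 gene symbols that the authors list as changed. The limits were a heterozygous mean log2 ratio to the reference at or under -1.5 and a null minus heterozygous difference of means of at least 1 on the log2 scale. Of 145 symbols within both limits, 21 belonging to other gene families were left out by name. The differences between genotypes that follow are therefore descriptions of what chose the genes. Counts of members past a test threshold are given as description and are no support for them.

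Expression was measured on 6 two-colour oligonucleotide arrays. Naive CD4+ CD62L-high CD25-negative T cells were taken from the spleens of Irf4 -/- (null, 3 samples) and Irf4 +/- (heterozygous, 3 samples) mice on a C57BL/6J background and cultured for 42 h toward the Th17 fate on plate-bound anti-CD3 with TGF-beta at 1 ng/ml, IL-23 and IL-6 at 20 ng/ml each, anti-CD28, and blocking of interferon gamma and IL-4. Both groups received the same treatment, no wild-type cells were included, and neither the age of the mice nor the deleted part of the gene was stated in the labels. Each sample was labelled with Cy5 and set against RNA pooled from 11 mouse tissues, labelled with Cy3, so a value is a log2 ratio to that pool and says nothing of how strongly one gene is expressed relative to another. The design text calls the samples biological replicates without saying whether they were separate animals, so errors measure the spread between these samples. The free-text description of heterozygous replicate 3 writes its genotype ambiguously, while its title and genotype field place it with the heterozygous samples.

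Irf4 encodes a transcription factor that lymphocytes induce on antigen receptor signalling. It binds DNA weakly alone and is recruited with partners: with ETS family factors to composite ETS-IRF elements, with BATF and JUN to composite AP-1-IRF elements, and at high concentration to interferon response elements. It is required for Th17 differentiation in mice. Its binding can accompany either activation or repression of a gene, and the arrays measure RNA only, so direct repression of the genes described here was not measured.

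Irf4 itself was lower in the null cells, which checks the labels. Its log2 ratio was 0.62, 0.65 and 0.73 in the null samples, against 3.02, 2.85 and 2.93 in the heterozygous samples, each in the order of replicates 1, 2 and 3, as for all values by sample that follow. The difference was -2.26 (SE 0.12, limma Benjamini-Hochberg adjusted p = 0.00351). The labelled cell type could be checked little: of 8 T cell markers only Cd28 was listed, and of 6 Th17 markers Ccr6, Il22 and Il23r were. The SD of all log2 ratios on an array was lowest on null replicate 1, at 1.61, and highest on null replicate 3, at 1.83. Ratios of exactly 0 made up 5.28% of the probes on null replicate 1 and 0.673% to 3.77% on the other arrays.

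The 124 genes were read by 139 listed probes, 111 of them by 1 probe each. Their symbols are those of the array's design: 91 are still current in RefSeq, 28 are older synonyms, 1 could mean several genes and 4 were not found there. The symbols 4833416E15Rik and Enpp1 both led to Enpp1, so the set holds 123 genes. In null cells the group means lay between -6.42 and 1.34 with a median of -1.30, against -7.68 to -1.55 with a median of -2.84 in heterozygous cells. The difference ran from 1.00 to 5.05 with a median of 1.46, a 2.75-fold change. The median was -0.05 over all 22622 genes and unnamed probes, and 0.17 over those with a heterozygous mean at or under -1.5. A difference of at least 2 was found for 26 genes, of at least 3 for 6 and of at least 4 for 2.

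Most of the genes stayed below the reference pool in null cells. The null mean was above 0 for 9 genes, between -1 and 0 for 40 and under -1 for 75, and for 17 of these it was under -3. All 3 null values were above 0 for 4 genes, Apol7c, Calhm6, Mst1r and Glipr1. How far any of these values lay above background on the array was not analysed here.

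**Figure D1:**
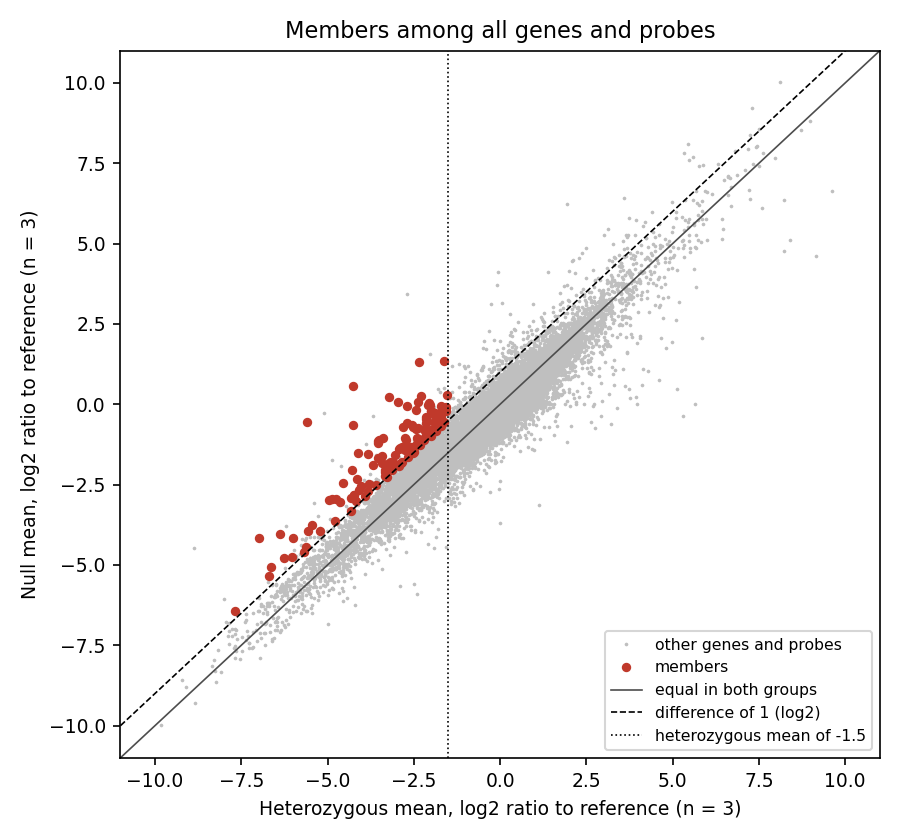
Mean log2 ratio to the reference in null cells (vertical axis, n = 3) against that in heterozygous cells (horizontal axis, n = 3) for 22622 genes and unnamed probes in grey and the 124 members in red. The members fill the corner left of the dotted line, at -1.5, and above the dashed line, a difference of 1, and 9 of them lie above 0 on the vertical axis.

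Every null sample read above every heterozygous sample for each of the 124 genes, while 12.2% of all genes and unnamed probes showed that order. In a limma fit across all 22622, 60 of the 124 passed a Benjamini-Hochberg adjusted p of 0.05, and 1.26% of all passed it on the higher side. Both counts follow from the selection on the same samples. Leaving out null replicate 1 brought the 60 to 25, null replicate 2 to 5 and null replicate 3 to 42. Leaving out heterozygous replicate 1 brought it to 17, replicate 2 to 25 and replicate 3 to 12. Over all 22622 the count in either direction, 551, fell as well. In the same order of samples left out it became 184, 30, 239, 80, 186 and 46. The gap between the lowest null and the highest heterozygous value had a median of 0.80. It was widest for Apol7c, at 4.43, and narrowest for Atl1 (listed as Spg3a), which encodes an endoplasmic reticulum GTPase, at 0.085.

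The widest difference belonged to Ano1 (listed as Tmem16a), which encodes a calcium-activated chloride channel of epithelia and smooth muscle. Its log2 ratio was -0.06, -0.18 and -1.37 in null cells, against -5.49, -5.92 and -5.34 in heterozygous cells. The difference was 5.05, a 33.1-fold change, and the lowest null value stood well clear of the highest heterozygous one. Null replicate 3 was the lowest of its group, and the null mean remained just under the reference.

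The interferon-inducible genes held the next differences. These genes are switched on by the STAT-containing factors downstream of interferon receptors, and several are also bound by IRF family members. Apol7c (listed as 2210421G13Rik), an apolipoprotein L family gene, read 0.73, 0.45 and 0.52 in null cells, against -4.38, -3.98 and -4.43 in heterozygous cells, a difference of 4.83. Calhm6 (listed as A630077B13Rik), of the calcium homeostasis modulator channel family, read 1.17, 1.31 and 1.46 in null cells, against -1.99, -2.13 and -2.94 in heterozygous cells, a difference of 3.66. All null samples of these genes were above the reference and close to each other. Ifi211 (listed as Mnda), of the p200 family of DNA-binding proteins, read -0.06, -0.05 and -0.07 in null cells, against -3.24, -2.19 and -2.65 in heterozygous cells. Its null samples sat at the reference with an SD of 0.01, and the difference was 2.63. The other interferon-inducible members differed less. Parp12, an ADP-ribosyltransferase gene, had a difference of 1.60, the exonuclease gene Isg20 had 1.38, Ifi44l (listed as H28) had 1.29, the torsin gene Tor3a had 1.16 and Oas1f, of the oligoadenylate synthetase 1 family, had 1.14.

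Seen against all listed genes, an interferon-inducible list of gene name beginnings, drawn up with earlier results known, took in 20 listed symbols, of which 7 are members. The 7 include Ms4a6d, described here with the innate surface genes, and leave out Parp12 and Tor3a. By limma adjusted p, 16 of the 20 were higher in null cells, 0 were lower and 4 did not pass, with a median difference of 2.53. Over all 689 listed symbols, 189 were higher, 168 were lower and 332 did not pass, with a median of -1.02. The members had to be higher by the rule, and 6 of the 7 are among the 16, so the 2 sets of counts cannot be read as a test. Of the 13 that are not members, 10 were higher, 0 were lower and 3 did not pass, against 129, 168 and 268 of the 565 listed symbols that are not members. All of these had already been selected by the authors for change. The 565 also include the 21 symbols within both limits that were left out by name, Ifi203 and Ifih1 among them. Those 21 symbols had to be higher by the same limits, so the counts without members cannot be read as a test either. How many of the 13 are among the 21 was not counted.

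RefSeq promoter windows of assembly GRCm38.p6, from 250 bases before the start site to 50 after it, were at hand for 84 of the 118 genes with a RefSeq entry, 119 windows in all. They are shown for 6 of the 7 members whose windows hold letters of the kind IRF proteins bind, leaving out Trim2, which lies at the limit on the difference, and for Ano1, whose window holds none of them. The interferon-response-like pattern was GAAA, any 2 bases, then GAAA, and the ETS-IRF pattern was GGAA, any 2 bases, then GAAA, each on either strand. Each sequence runs 5′ to 3′ on the strand of the gene, and capitals mark the matches.

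Apol7c (chr15:77533266-77533565, minus strand): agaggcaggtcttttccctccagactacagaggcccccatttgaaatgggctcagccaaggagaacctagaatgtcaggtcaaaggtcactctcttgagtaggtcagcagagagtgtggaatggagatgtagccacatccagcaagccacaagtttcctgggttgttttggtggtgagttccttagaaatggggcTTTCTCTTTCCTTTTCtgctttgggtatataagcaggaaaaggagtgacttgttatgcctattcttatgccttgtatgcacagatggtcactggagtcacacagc

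Calhm6 (chr10:34127923-34128222, minus strand): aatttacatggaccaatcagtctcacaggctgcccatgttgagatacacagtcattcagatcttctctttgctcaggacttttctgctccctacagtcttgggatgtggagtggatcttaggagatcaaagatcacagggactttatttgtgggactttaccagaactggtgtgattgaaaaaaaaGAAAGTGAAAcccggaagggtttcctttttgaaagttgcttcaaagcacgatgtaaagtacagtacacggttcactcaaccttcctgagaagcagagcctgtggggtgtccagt

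Ifi211 (chr1:173912997-173913296, minus strand): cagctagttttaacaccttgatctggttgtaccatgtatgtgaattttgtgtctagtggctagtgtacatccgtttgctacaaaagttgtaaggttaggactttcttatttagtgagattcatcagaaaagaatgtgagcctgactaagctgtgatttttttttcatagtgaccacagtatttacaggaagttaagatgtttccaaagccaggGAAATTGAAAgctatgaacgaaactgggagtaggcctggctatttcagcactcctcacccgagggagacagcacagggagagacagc

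Wls (chr3:159839400-159839699, plus strand): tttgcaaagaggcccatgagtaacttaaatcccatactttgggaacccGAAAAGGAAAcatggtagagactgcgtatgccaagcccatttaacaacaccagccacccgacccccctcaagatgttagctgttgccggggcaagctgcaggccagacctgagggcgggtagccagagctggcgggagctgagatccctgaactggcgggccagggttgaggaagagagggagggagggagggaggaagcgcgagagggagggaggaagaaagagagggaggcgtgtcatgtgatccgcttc

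Tlr6 (chr5:64959117-64959416, minus strand): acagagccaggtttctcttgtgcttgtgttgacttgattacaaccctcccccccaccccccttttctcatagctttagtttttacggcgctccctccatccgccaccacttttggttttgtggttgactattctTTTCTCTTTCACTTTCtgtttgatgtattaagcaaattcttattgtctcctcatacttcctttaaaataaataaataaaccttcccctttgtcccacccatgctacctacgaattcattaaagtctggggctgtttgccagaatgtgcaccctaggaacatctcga

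Mst1r (chr9:107914753-107915052, plus strand): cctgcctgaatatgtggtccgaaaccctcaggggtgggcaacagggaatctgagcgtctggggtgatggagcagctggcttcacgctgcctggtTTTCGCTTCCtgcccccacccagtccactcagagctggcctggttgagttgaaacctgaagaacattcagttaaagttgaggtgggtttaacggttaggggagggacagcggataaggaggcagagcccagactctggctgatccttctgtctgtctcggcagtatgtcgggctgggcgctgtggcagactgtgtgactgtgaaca

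Ano1 (chr7:144738524-144738823, minus strand): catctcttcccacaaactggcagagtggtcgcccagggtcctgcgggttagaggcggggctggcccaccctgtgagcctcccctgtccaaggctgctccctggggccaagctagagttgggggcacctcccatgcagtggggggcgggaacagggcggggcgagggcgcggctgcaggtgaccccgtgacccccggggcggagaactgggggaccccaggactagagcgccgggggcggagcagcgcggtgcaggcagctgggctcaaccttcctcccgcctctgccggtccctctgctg

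The interferon-response-like pattern stood in 6 of the 119 member windows, 5.04%, and in 3.35% of 21263 windows of protein-coding genes. The 6 genes were Apol7c, Calhm6, Ifi211, Wls, Tlr6 and Trim2, and 3 of them are among the 7 interferon-inducible members with a window. The other interferon-inducible windows, of Parp12, Isg20, Ifi44l and Oas1f, held no match. In Apol7c the pattern began at -55 and at -49 relative to the start site, the 2 matches overlapping, in Calhm6 at -64 and in Ifi211 at -37. In Tlr6 it began at -116 and -110, again overlapping, in Wls at -202 and in Trim2 at 28 past the start site. The ETS-IRF pattern was in 1 member window, that of Mst1r, 0.84% against 2.53% of all windows. The AP-1 pattern TGANTCA was in 7.56% of member windows and 6.99% of all windows, and the 2 patterns that join it to GAAA were in 0 member windows and in 0.113% and 0.0847% of all windows. The TATA box letters TATAAA were in 10.9% of member windows and 12.6% of all. Windows with under 5 CpG dinucleotides made up 17.6% of member windows and 28.4% of all. These are letter matches in short windows and show neither binding nor its absence.

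The innate and immune surface genes were led by Ms4a6d, of the MS4A family of membrane proteins, a gene known from macrophages. It read 0.73, 0.29 and -0.31 in null cells, against -3.15, -3.31 and -3.20 in heterozygous cells, a difference of 3.46, and its 2 probes gave 3.03 and 3.88. The heterozygous samples were tightly grouped and the null samples spread around the reference. Pirb (listed as Lilrb3), which encodes an inhibitory receptor for MHC class I, read -0.32, -0.83 and -0.97 in null cells, against -3.07, -1.82 and -2.66 in heterozygous cells. Tlr6, which encodes a receptor for bacterial lipopeptides, read -0.10, -0.31 and -0.67 in null cells, against -1.34, -1.90 and -2.41 in heterozygous cells. The groups were separate for both receptors, with differences of 1.81 and 1.52. Nod1, which encodes a cytosolic sensor of bacterial peptidoglycan, had a difference of 1.78, and Icosl, the ligand of the T cell costimulator ICOS, had 1.42. Mgl1, a listed symbol that matches several current genes, had 1.38.

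Some of these genes are markers of other cell types, and the arrays give little to weigh them with. In bulk RNA, fewer cells of a type and less RNA per cell cannot be told apart. Ms4a6d was the only listed gene among 19 macrophage and monocyte markers, Sdc1 the only one among 8 B cell and plasma cell markers and Epcam the only one among 4 epithelial markers. Itgax among 9 dendritic cell markers, and Eomes and Prf1 among 8 NK and cytotoxic markers, were listed and are not members. Eomes and Prf1 are among the names left out, so they could not be members whatever their values. No marker of mast cells, neutrophils, red cells and platelets, or fibroblasts and endothelium was listed. The labels describe the starting cells as naive CD4+ T cells and give no purity. The levels of the unlisted markers are not known, and the part of other cell types in these differences was not tested.

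Among the genes of secreted factors, Olfm1, which encodes a secreted glycoprotein best known from neurons, read 0.25, 0.18 and -0.20 in null cells, against -2.54, -2.91 and -3.40 in heterozygous cells. The difference was 3.02, and the null samples straddled the reference. Wls (listed as Gpr177), which encodes the carrier that brings Wnt ligands to the cell surface, read -4.12, -4.20 and -4.13 in null cells, against -6.90, -6.56 and -7.49 in heterozygous cells. It was higher by 2.83 and still far under the reference in every sample. Csf1, the macrophage colony-stimulating factor gene, had a difference of 2.32. Pdgfc, which encodes platelet-derived growth factor C, read -3.28, -3.66 and -4.36 in null cells, against -5.20, -5.61 and -5.58 in heterozygous cells. Ccn2 (listed as Ctgf), the connective tissue growth factor gene, read -5.12, -5.26 and -5.64 in null cells, against -6.72, -6.56 and -6.78 in heterozygous cells. Both were far below the reference in all samples, with differences of 1.69 and 1.34. Dhh, which encodes the hedgehog ligand of the gonad and peripheral nerve, had a difference of 1.62, and the neurotensin precursor gene Nts had 1.35.

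Of the receptor genes, Mst1r crossed the reference. It encodes RON, the receptor tyrosine kinase for macrophage-stimulating protein, and read 1.60, 1.24 and 1.17 in null cells, against -1.37, -1.38 and -2.15 in heterozygous cells. The null mean of 1.34 was the highest among the 124 genes, and the difference was 2.97. Lpar1 (listed as Edg2) and Lpar2 (listed as Edg4) encode receptors for lysophosphatidic acid. Lpar1 read -5.13, -3.002 and -4.36 in null cells, against -6.33, -5.61 and -6.07 in heterozygous cells, a difference of 1.84 with the widest null SD of the set, 1.08. Lpar2 had a difference of 1.08. Bmpr1a, which encodes a type I receptor for bone morphogenetic proteins, read -1.58, -2.29 and -2.30 in null cells, against -3.18, -3.34 and -2.87 in heterozygous cells. Its difference was 1.07, near the limit. The engulfment receptor gene Megf10 had 1.60, the natriuretic peptide clearance receptor gene Npr3 had 1.39 and Vasn, whose product binds TGF-beta, had 1.27. Lrp11 had 1.13, while Ramp2, which encodes a partner of the calcitonin receptor-like receptor, and the thrombin receptor gene F2r each had 1.02.

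The matrix, adhesion and proteolysis genes included F13a1, which encodes the A subunit of coagulation factor XIII, with a difference of 2.27. Tnc, which encodes the matrix glycoprotein tenascin C, read -1.498, -0.16 and -0.13 in null cells, against -2.56, -2.90 and -2.62 in heterozygous cells, a difference of 2.10. Null replicate 1 stood apart from the other null samples, below them. The collagen chain gene Col4a5 read -3.52, -3.03 and -2.32 in null cells, against -4.84, -5.20 and -4.60 in heterozygous cells, a difference of 1.92. Col5a2, of the fibrillar collagen V, read -5.17, -4.68 and -5.31 in null cells, against -6.35, -6.83 and -6.70 in heterozygous cells, a difference of 1.57. Neither collagen gene came near the reference in any sample. Glipr1, a gene of the CAP superfamily, read 0.45, 0.28 and 0.13 in null cells, against -1.47, -1.54 and -1.65 in heterozygous cells. All null samples of Glipr1 were above the reference and all heterozygous samples below it, a difference of 1.84. The epithelial adhesion gene Epcam (listed as Tacstd1) had a difference of 1.87, the junction gene Jam2 had 1.77 and Fap, which encodes a serine protease of activated fibroblasts, had 1.69. Cst6, which encodes an inhibitor of cysteine proteases, had 1.55, the tetraspanin gene Tspan9 and the aggrecanase gene Adamts4 each had 1.53, the gap junction gene Gja1 had 1.41 and the proteoglycan gene Sdc1 had 1.39. The neuronal adhesion gene Negr1 had 1.36, Cpxm1, of the carboxypeptidase X family, had 1.05 and the cathepsin gene Ctsh had 1.02. A list of name beginnings for matrix and protease genes took in 11 listed symbols, 5 of them members. By limma adjusted p, 6 of the 11 were higher in null cells, 0 were lower and 5 did not pass, while 189 of all 689 listed symbols were higher. The rule required the 5 members to be higher, and 3 of them, Adamts4, Col4a5 and Col5a2, are among the 6. Of the 6 symbols on this list that are not members, 3 were higher, 0 were lower and 3 did not pass. Over the 565 listed symbols that are not members, the counts were 129, 168 and 268. How many of the 6 were within both limits and left out by name was not counted, so these counts cannot be read as a test.

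**Figure D2:**
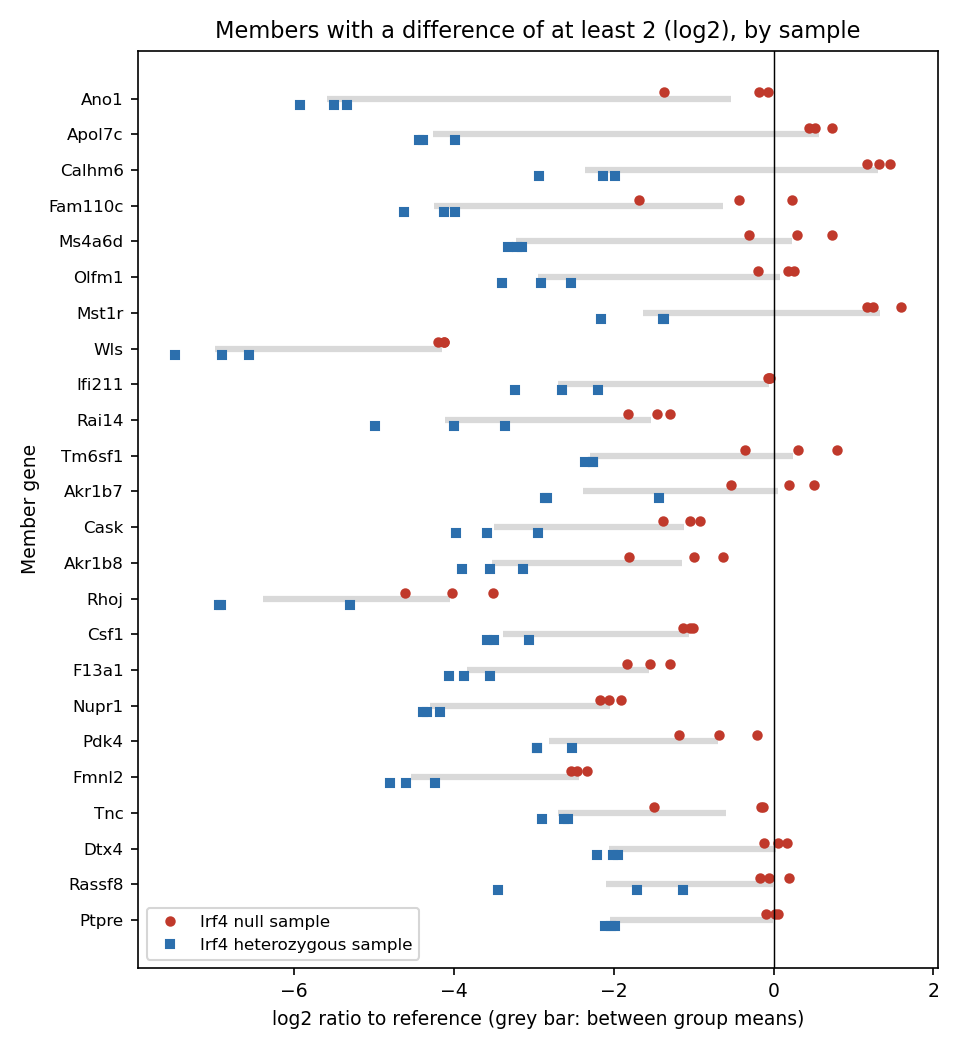
Log2 ratio to the reference (horizontal axis) in each null sample (red circles) and each heterozygous sample (blue squares) for 24 of the 26 members with a difference of at least 2, widest at the top, with a grey bar between the group means. No red circle lies left of a blue square of the same gene, and the vertical line marks the reference at 0.

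The genes of channels, membrane enzymes and lipid handling other than Ano1 had differences of 1.00 to 2.54. Tm6sf1, which encodes a membrane protein of lysosomes, read 0.79, 0.31 and -0.36 in null cells, against -2.25, -2.36 and -2.26 in heterozygous cells. The heterozygous samples lay within a narrow band and the null samples did not. Ank, whose product exports ATP and pyrophosphate, read -0.23, -0.57 and -1.14 in null cells, against -2.48, -2.69 and -2.47 in heterozygous cells, a difference of 1.90. Enpp1, which encodes the ectoenzyme that makes pyrophosphate from ATP, was listed under 2 symbols with differences of 1.07 and 1.05, and the related ectonucleotidase gene Enpp3 had 1.34. Mcoln2, an endolysosomal cation channel gene, had 1.77, the phospholipid scramblase gene Plscr2 had 1.47 and Tmem158 had 1.45. The lipid droplet genes Tmem159 and Plin2 (listed as Adfp) had 1.30 and 1.00. The caveolin gene Cav2, with a null mean of -6.42 and a heterozygous mean of -7.68, had 1.26.

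The 13 genes of transcription factors and cofactors had differences of 1.17 to 2.33. Nupr1, which encodes a small stress-induced chromatin protein, read -2.17, -2.06 and -1.91 in null cells, against -4.17, -4.38 and -4.34 in heterozygous cells, a difference of 2.25. Replicates of both groups lay close together. Zfp945 (listed as A630033E08Rik), a zinc finger gene, read -1.70, -1.62 and -1.53 in null cells, against -3.62, -2.78 and -3.88 in heterozygous cells. Zfp608, another zinc finger gene, read -0.94, -0.77 and -0.60 in null cells, against -2.68, -2.43 and -2.22 in heterozygous cells. Their differences were 1.81 and 1.67, and neither reached the reference. Cbfa2t3 (listed as Cbfa2t3h), which encodes a corepressor, had 1.81, and the chromatin reader gene Phip had 1.65. Med12l, a Mediator subunit gene, and Tead1 (listed as 2610024B07Rik), the DNA-binding partner of YAP, each had 1.49. The LIM cofactor gene Fhl2 had 1.29, Zfp30 had 1.26, Bcl11a, which encodes a repressor of fetal globin genes that B cell development requires, had 1.24 and the E protein gene Tcf4 had 1.17.

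The metabolic enzyme genes had the highest median difference of any role, 1.88 over 6 genes. Akr1b7, which encodes an aldo-keto reductase of the adrenal and gut, read -0.53, 0.19 and 0.51 in null cells, against -1.44, -2.86 and -2.84 in heterozygous cells, a difference of 2.43. Heterozygous replicate 1 was the highest of its group and null replicate 1 the lowest of its group, which left a gap under 1 between them. Akr1b8, a paralog, had 2.38, and Pdk4, which encodes a kinase that inhibits pyruvate dehydrogenase, had 2.12. Gstt3, a glutathione transferase gene, read -0.55, -0.73 and -0.96 in null cells, against -2.04, -2.55 and -2.56 in heterozygous cells. Its groups were more than 1 apart, and its difference was 1.64. Papss2, which makes the sulfate donor PAPS, had 1.46 and the glycerol kinase gene Gk (listed as Gyk) had 1.03.

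The 13 genes of the cytoskeleton and trafficking began with Fam110c (listed as 9030611O19Rik), whose product binds microtubules. It read 0.23, -0.43 and -1.69 in null cells, against -4.13, -3.99 and -4.63 in heterozygous cells, a difference of 3.62 that its 2 probes gave as 3.53 and 3.70. The null samples were spread over almost 2 units, all above the heterozygous ones. Rai14, which encodes an actin-bundling protein, read -1.30, -1.46 and -1.82 in null cells, against -3.36, -4.98 and -3.99 in heterozygous cells, a difference of 2.58. Myo1e, a class I myosin gene, read -1.43, -1.496 and -1.16 in null cells, against -2.53, -3.28 and -2.85 in heterozygous cells, a difference of 1.52. Neither gene reached the reference. Of genes for small GTPases and actin regulators, grouped here after they were seen, the GTPase gene Rhoj had a difference of 2.34, the formin gene Fmnl2 had 2.10, Kank1 (listed as Ankrd15) had 1.63 and the exchange factor genes Arhgef6, Dock5 and Fgd4 had 1.53, 1.39 and 1.08. Dnal1 (listed as Dnalc1), a dynein light chain gene, had 1.41, the Rab27 effector gene Sytl2 had 1.24, and Atl1 and the sorting nexin gene Snx9 each had 1.03.

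Of 4 genes tied to Notch signalling or gamma-secretase, Dtx4, a Deltex family ubiquitin ligase gene, had a difference of 2.09 with its 3 probes at 1.71, 2.28 and 2.29. Poglut3 (listed as Kdelc2), which glucosylates EGF repeats, had 1.68. Aph1b, a gamma-secretase subunit gene, had 1.26 and Gsap (listed as A530088I07Rik), which encodes the gamma-secretase activating protein, had 1.10. The 16 genes of kinases, phosphatases and other signalling were led by the scaffold gene Cask at 2.38, whose 2 probes gave 1.55 and 3.22, the widest disagreement between probes of a member. Rassf8, of the Ras association family, had 2.08, the tyrosine phosphatase genes Ptpre and Ptpn14 had 2.03 and 1.83, the kinase gene Dapk2 had 1.99 and Ppp3ca, which encodes the catalytic subunit of calcineurin, had 1.59. Differences between 1.01 and 1.37 were found for Ralgapa2 (listed as BC053994), Rasgef1a, Cables1, the splicing kinase gene Srpk2, the ubiquitin ligase genes Mylip and Trim2, Grtp1, the Argonaute gene Ago4 (listed as Eif2c4), Fbxo39 and the BH3-only death gene Bmf. The remaining 13 genes had differences of 1.01 to 1.77. They were Evi2a, Rnft2 (listed as Tmem118), Cnrip1 (listed as 1500041B16Rik), Magea3, the chaperone gene Hyou1, the cyclophilin gene Ppic, Depdc7, Mfap3l and the listed symbols D230038C21, EG620382, E430014L09Rik, 2210008N01Rik and 2600006K01Rik, which are given no role here.

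**Figure D3:**
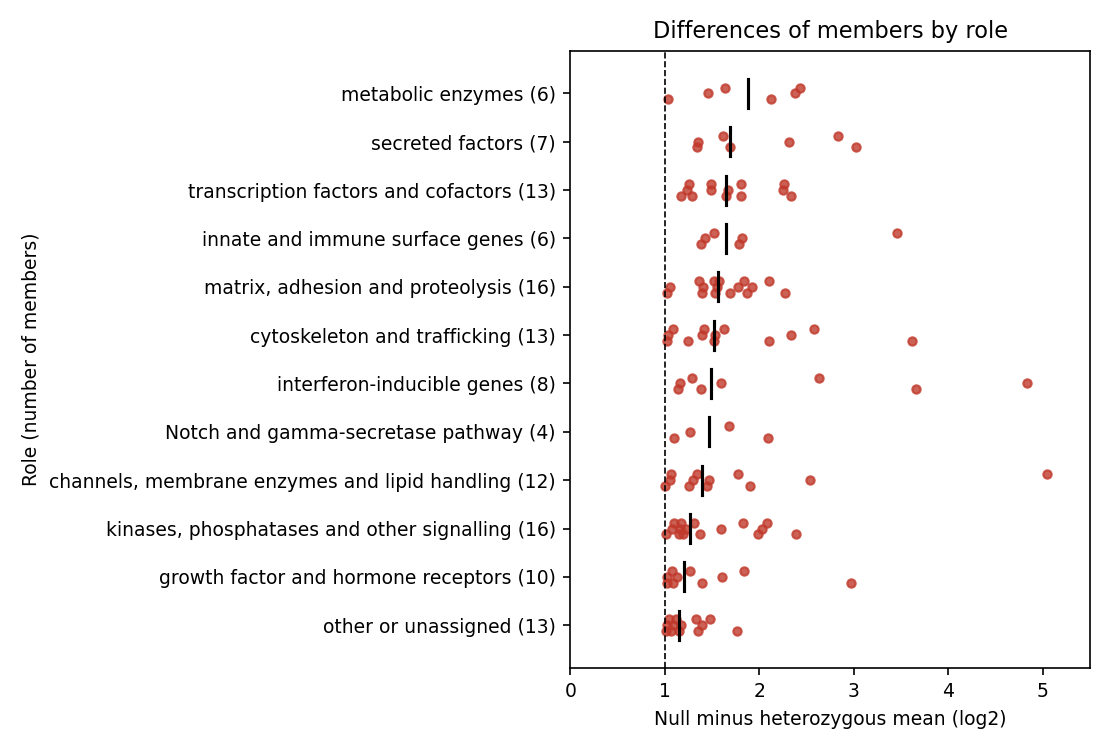
Null minus heterozygous difference of mean log2 ratios (horizontal axis) for each of the 124 members, a red point each, by role, with a black bar at the median of the role and a dashed line at the limit of 1. Medians run from 1.15 for genes of other or no assigned role to 1.88 for metabolic enzymes, and the widest differences lie in channels and membrane enzymes, at 5.05, and interferon-inducible genes, at 4.83.

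Most other lists of name beginnings held both higher and lower genes. Among 35 listed transcription factors, 5 of them members, 10 were higher, 10 were lower and 15 did not pass by limma adjusted p. Among 20 listed ion channels and transporters, 2 of them members, 2 were higher and 8 were lower. Among 16 listed G protein-coupled and other receptors, 4 of them members, 1 was higher and 5 were lower. Developmental signalling names gave 6 higher and 2 lower of 14, cytoskeleton and adhesion names 5 and 6 of 21, cell cycle, death and stress names 7 and 2 of 14, and lipid and steroid names 2 and 3 of 11. The 1 listed germline name was higher. In each list the members had to be higher by the rule. Name beginnings sort crudely: the letters alone placed Glipr1 in developmental signalling, Ank and Mylip in the cytoskeleton and Bcl11a in cell death, and Ms4a6d was counted as interferon-inducible.

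Some of the genes neighbour each other or another listed gene in the order of protein-coding genes of GRCm38.p6. Ccn2, Enpp1 and Enpp3 stand in a row, with differences of 1.34, 1.07 and 1.34. Akr1b7 and Akr1b8 stand on either side of Akr1b10, which had a difference of 1.16 and a heterozygous mean of -1.37, just outside the set. Ifi211 stands beside Ifi203, left out of the set by name, which had 3.32. Among 11 listed genes that are next to a member and are not members, 9 were higher in null cells and 2 were lower. Of all listed symbols 47.6% were higher, a share that counts the members, which had to be higher. The other higher neighbours were Clrn3 beside Ptpre at 2.50, Tnfsf8 beside Tnc at 2.27, Ifih1 beside Fap at 2.12, Asb4 beside Pdk4 at 1.82, Mcoln3 beside Mcoln2 at 1.60, Ggct beside Nod1 at 1.36 and Hmgn3 beside Phip at 1.07. The lower ones were Tes beside Cav2 at -1.30 and Hsf2 beside Gja1 at -1.27. Ifi203 and Ifih1 were within both limits and left out only by name, so both had to be higher. Whether probes of paralogs such as the Akr1b genes share signal was not tested.

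Within the groups, null replicate 1 tended to be high. It gave the highest null value for 77 of the 124 genes, 62.1%, against 20 for null replicate 2 and 27 for null replicate 3. The same array was the highest null array for 59.4% of the 4135 genes and unnamed probes with a heterozygous mean at or under -1.5. Its lead is therefore not particular to the set. Null replicates 2 and 3 were highest for 24.9% and 15.7% of those low genes and probes, against 16.1% and 21.8% of the 124. Heterozygous replicate 1 was the highest of its group for 46.0% of the 124 and 30.0% of the low genes and probes. Over the 124 genes the median log2 ratio was -1.10, -1.31 and -1.38 on null replicates 1, 2 and 3, and -2.75, -2.92 and -2.90 on the heterozygous replicates. The median SD over the 124 genes was 0.32 in null and 0.30 in heterozygous cells, against 0.45 and 0.28 over all low genes and probes. The median SD was thus smaller in the set for null cells and slightly larger for heterozygous cells. The authors had also selected on an unadjusted p-value, which depends on the SD, and its part in these values was not tested. Without null replicate 1, 106 symbols met the rule, all of them among the 124.

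**Figure D4:**
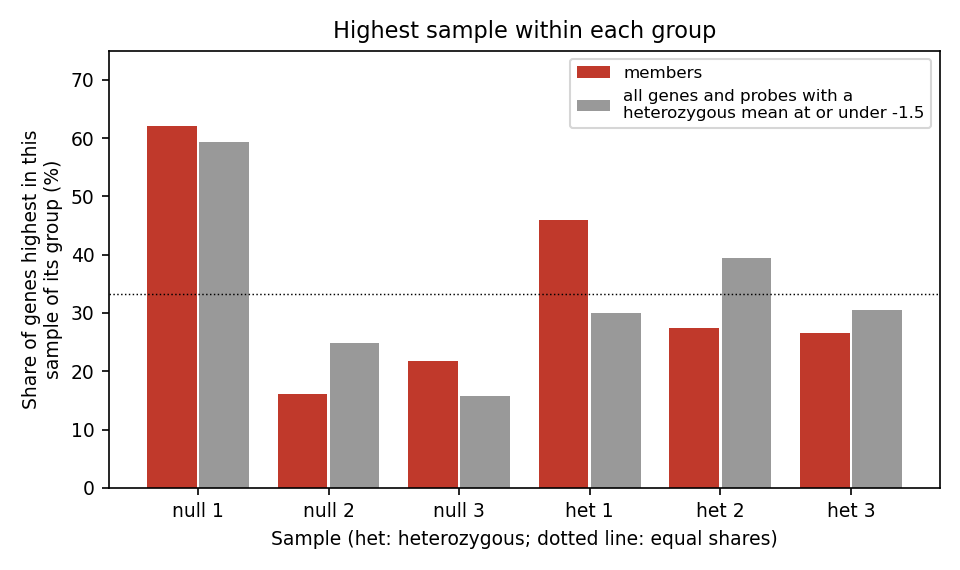
Share of genes (vertical axis, percent) for which each sample is the highest of its group, for the 124 members in red and for 4135 genes and unnamed probes with a heterozygous mean at or under -1.5 in grey, with a dotted line at equal shares. Null replicate 1 is the highest null sample for 62.1% of the members and 59.4% of all low genes and probes.

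Exact zeros touched 5 of the 124 genes, each with 1 such value, on null replicate 1. Dock5, an exchange factor gene for Rac, read 0, -1.11 and 0.05 in null cells, against -1.55, -2.04 and -1.65 in heterozygous cells. Fgd4, an exchange factor gene for Cdc42, read 0, -0.81 and -0.98 in null cells, against -1.36, -2.02 and -1.65 in heterozygous cells. Negr1 read 0, -0.93 and 0.31 in null cells, against -1.69, -1.93 and -1.06 in heterozygous cells. The zero was the highest null value of Fgd4, while Dock5 and Negr1 had a higher one. Phip read 0, -0.06 and -0.10 in null cells, against -1.96, -1.76 and -1.40 in heterozygous cells. EG620382 read 0, -0.84 and -0.79 in null cells, against -1.32, -1.86 and -1.66 in heterozygous cells. The sources used here do not say what a ratio of exactly 0 stands for. With zeros taken as missing, a treatment chosen with earlier results known, Fgd4 and EG620382 no longer met the rule and the other 122 symbols did.

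At the limit on the heterozygous mean, the genes just inside were Glipr1 at -1.55, Negr1 at -1.56 and Papss2 at -1.57. Papss2 read 0.53, -0.37 and -0.51 in null cells, against -1.63, -1.13 and -1.95 in heterozygous cells. The genes just outside were Rbp4 and MGC118210, both at -1.49, and Cnksr3 at -1.46, with differences of 1.69, 1.20 and 1.64. Rbp4, the retinol carrier gene, read 0.50, 0.27 and -0.19 in null cells, against -0.86, -1.77 and -1.85 in heterozygous cells. MGC118210 read 0, -0.48 and -0.40 in null cells, against -1.54, -1.53 and -1.39 in heterozygous cells. The samples of these genes on either side of the limit overlapped, so the limit divides a continuous range. Cnksr3 read 0.26, 0.15 and 0.14 in null cells, against -1.79, -1.02 and -1.57 in heterozygous cells. At the limit on the difference, Plin2, Trim2 and 2600006K01Rik lay just inside, at 1.00, 1.01 and 1.01, and no listed symbol lay just outside, since the authors listed probes only above the same size. Plin2 read -1.79, -1.87 and -2.13 in null cells, against -2.74, -3.05 and -3.001 in heterozygous cells. Trim2 read -3.22, -2.83 and -3.89 in null cells, against -4.07, -4.43 and -4.47 in heterozygous cells. The listed symbol 2600006K01Rik read -0.94, -0.65 and -1.39 in null cells, against -1.69, -2.01 and -2.30 in heterozygous cells. For these genes the lowest null value stood less than 1 above the highest heterozygous value.

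The limits can be set against the whole array without the names. Of 4135 genes and unnamed probes with a heterozygous mean at or under -1.5, 248 were higher in null cells by at least 1, 6.00%, and 70 were lower by at least 1, 1.69%. Unnamed probes made up 103 of the 248. A low limit on one group favours rows that read low there, so the mirrored count was made: of 3999 with a null mean at or under -1.5, 161 were lower in null cells by at least 1, 4.03%. With the limit on the mean of all 6 samples, 4020 rows qualified, of which 182 were higher and 116 were lower by at least 1. With the limit on the heterozygous mean and on the mean of all 6 samples, the differences ran both ways among genes and probes low against the reference. The mirrored count took only the lower ones.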

How the data were processed

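The deposited value table holds 22749 probes and 6 arrays as log2 ratios of sample (Cy5) to reference (Cy3), which per the file headers are normalized. Per the submitters' processing notes the tools were Agilent Feature Extraction 10.7 and Partek, and the order of steps is not recorded. The log base was read off 828 probes, whose null minus heterozygous means lay within 1.03e-05 of log2 of the fold that the authors deposited for them. Those probes were listed, per the file headers, by a 1-way ANOVA in Partek Genomic Suite 6.6 at over 2-fold and an unadjusted p-value under 0.05, and that deposited p-value was not used further. The deposited fold column is a signed score, negative where null cells were lower.

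Symbols came from this list alone, where 816 probes carry 689 symbols. Probes of a symbol were averaged, which with the unnamed probes gave 22622 rows. Other probes of a named gene stay unnamed rows. Symbols were updated through RefSeq names and synonyms (GRCm38.p6). The fit used limma 3.58.1 (lmFit, eBayes) in R 4.3.3 with no covariate, Benjamini-Hochberg adjustment over all rows and a threshold of 0.05, and was tested on simulated data. Intensities, background flags, slides and scan dates were not analysed here, and the number of arrays limits the precision. The members, roles and gene lists were chosen with earlier results of these data known, and roles were assigned after the members were seen. Every member is named except 2, which are counted but not reported by name here. Values by sample are given for the 12 widest differences, members with an exact 0, those nearest the limits and up to 3 members of each list with at least 3, and Irf4 is named as the targeted gene. Alternatives covered scaling, zeros, probes of a gene, the variance model, the methods' test, a replicate block, the limits and leaving out each sample.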

Additional observations from a re-analysis of the deposited data

How the results depend on the processing

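The 124 symbols became 112 to 126 under the 5 other treatments of the values (zeros as missing, centring, quantile normalization, scaling to one spread, the least changed probe) and 106 to 119 with 1 sample left out. Of the 124, 84 met the rule in all of these settings. Every listed probe already exceeded 2-fold, so taking the least changed probe could not drop a member by the difference. Unlisted probes of a gene did not enter. Quantile normalization lost 12, among them Plin2, Trim2, Ctsh and F2r. Raising the limit on the difference to 1.5 left 58, and limits of -2 and -1 on the heterozygous mean gave 102 and 152. The count of members past the limma threshold on the higher side, 60, became 35 with the methods' test and 2 with the replicate block. With 1 sample left out it became 5 to 42. The count over all rows, 551, took both directions, 286 higher and 265 lower. It became 13 with the block and 30 to 239 with 1 sample left out. The other settings gave 46 to 61 members and 380 to 790 rows. The members past the threshold in all 6 fits with 1 sample left out were Ano1, Apol7c, Nupr1, Dtx4 and Ptpre. The same samples had chosen these genes, so this is no test of them. The share of all rows past the threshold in all 6 fits was not counted. Irf4 kept its difference of -2.26 with the block, with an adjusted p of 0.0534, against 0.00148 to 0.0334 in the other settings. The correlation between deviations of samples with one replicate number was 0.097, -0.0123 and -0.0367, so the numbers were not taken to pair the samples. Fewer samples and fewer residual degrees of freedom make a fit less able to call a gene. Fits that each left out 1 sample differed among themselves, at 5 to 42 members. The cause of the shifts was not tested. With no background flags, how many differences between low ratios lie above background is not known.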
